A study of Mus musculus with 8 samples.

Results

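Complement is a set of soluble proteins and cell-surface receptors that tag particles for uptake and call in phagocytes. The genes described here are 8 members of that system, taken by symbol from the 55414 genes of the count table: the C1q subunit genes C1qa, C1qb and C1qc, the central component gene C3, the alternative pathway genes Cfb and Cfp, and the receptor genes C3ar1 and C5ar1. They were measured by bulk RNA sequencing in macrophages from mouse skin wounds, in 5 libraries from day 3 after injury (day 3 a to e) and 3 libraries from day 1 (day 1 a to c). Each library came from cells selected with magnetic beads against F4/80, a macrophage surface protein, from 6 wounds of 3 mice pooled together. The labels name no strain, age, genotype or treatment beyond the wound, and they give no unwounded sample, so the comparison is day 3 against day 1 within wounded skin. Nothing in them tells if any animal entered several pools, so each p-value reflects variation among pools, which may not be independent animals.

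In the classical pathway, C1q binds antibody, dying cells or microbes and starts a chain of proteases that cleaves C3. The alternative pathway amplifies that cleavage through factor B, the protease subunit encoded by Cfb, and properdin, encoded by Cfp, which stabilises the enzyme. Fragments released from C3 and C5 act on C3ar1 and C5ar1, receptors that guide the movement and activation of myeloid cells. Most circulating complement comes from the liver, whereas C1q is made mainly by macrophages and related cells.

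Total counts ran from 50515389 to 56661695 in day 3 libraries and from 41566151 to 60289310 in day 1 libraries. Genes with any count numbered 14952 to 20557 in day 3 libraries and 23928 to 27315 in day 1 libraries, ranges that do not overlap. The cause of this difference was not tested. The detection floor was set at 3 counts (counting error only), which equals 0.0516 to 0.0610 CPM at day 3 and 0.0501 to 0.0755 CPM at day 1, where CPM is the count scaled to a common library size with TMM factors. Of the counts from 2 to 20, 73.0% to 86.0% per library were even, and no option for read pairs was recorded. If both reads of a pair were counted, 3 counts stand for fewer than 3 RNA fragments, and the floor is lenient. Rare transcripts also varied more than counting error between libraries of a day. The C1 inhibitor gene Serping1, for example, had 372, 310, 60, 0 and 342 counts in day 3 a to e. Markers of macrophages were abundant in all libraries. Adgre1, which encodes F4/80, averaged 1129 ± 76.3 CPM at day 3 and 819 ± 126 CPM at day 1 (SD, n = 5 and 3). Summed macrophage markers ran from 47958 to 58568 CPM at day 3 and from 17684 to 28704 CPM at day 1, with 3 of 8 genes higher in every day 3 library and 1 lower. Summed inflammatory monocyte markers ran from 1354 to 2155 CPM at day 3 and from 2788 to 3807 CPM at day 1, with 4 of 6 genes lower in every day 3 library. Neutrophil markers were high in day 3 b (3624 CPM, against 428 to 637 CPM in the other day 3 libraries) and in day 1 b and c (2187 and 3773 CPM, against 825 CPM in day 1 a). The defining neutrophil gene Ly6g was at a low level, with 1.52, 6.83, 0.0393, 0 and 0.0191 CPM in day 3 a to e. In day 1 a to c it had 3.73, 3.90 and 6.81 CPM. Within each day it was thus highest in day 3 b and in day 1 c, as the neutrophil sum was. In bulk RNA, fewer cells of a type and less RNA per cell cannot be told apart.

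All 8 members passed the filter on low counts, and 0 of them were called at an adjusted p under 0.05 in the edgeR quasi-likelihood test, two-sided, where 0.013% of the 15371 genes tested were called. The members split in direction, with C1qb, C1qc and C3ar1 above and C5ar1, Cfp and Cfb below their day 1 levels. At an unadjusted p under 0.05 there were 5 of 8 (15.7% of all genes tested, and 28.3% of those at an average of 5 or more log2 CPM), 3 with a positive and 2 with a negative log2 fold change. The day ranges did not overlap for 5 of 8 members, against 14.1% of genes tested and 20.6% of the more abundant set. Of these 5, C1qb and C1qc were higher at day 3 (5.31% of genes tested) and Cfb, Cfp and C5ar1 lower (8.76%). DESeq2 called C5ar1 and Cfp lower, where it called 6.77% of all genes (2.48% higher, 4.29% lower), and limma voom called C5ar1 lower, where it called 5.37% (0.963% higher, 4.4% lower). Without a filter on low counts edgeR called C5ar1 lower and C3ar1 higher, where it called 3.5% of genes (0.545% higher, 2.95% lower). At an adjusted p under 0.1 it called C5ar1 alone, with 4.78% of genes. A stricter filter left 0 of 8 called, with 1.79% of genes (0.774% higher, 1.02% lower). The median log2 fold change of the 8 members was -0.030, against -0.17 over all genes tested. Log2 fold changes are day 3 minus day 1 and are given with their standard error.

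**Figure D1:**
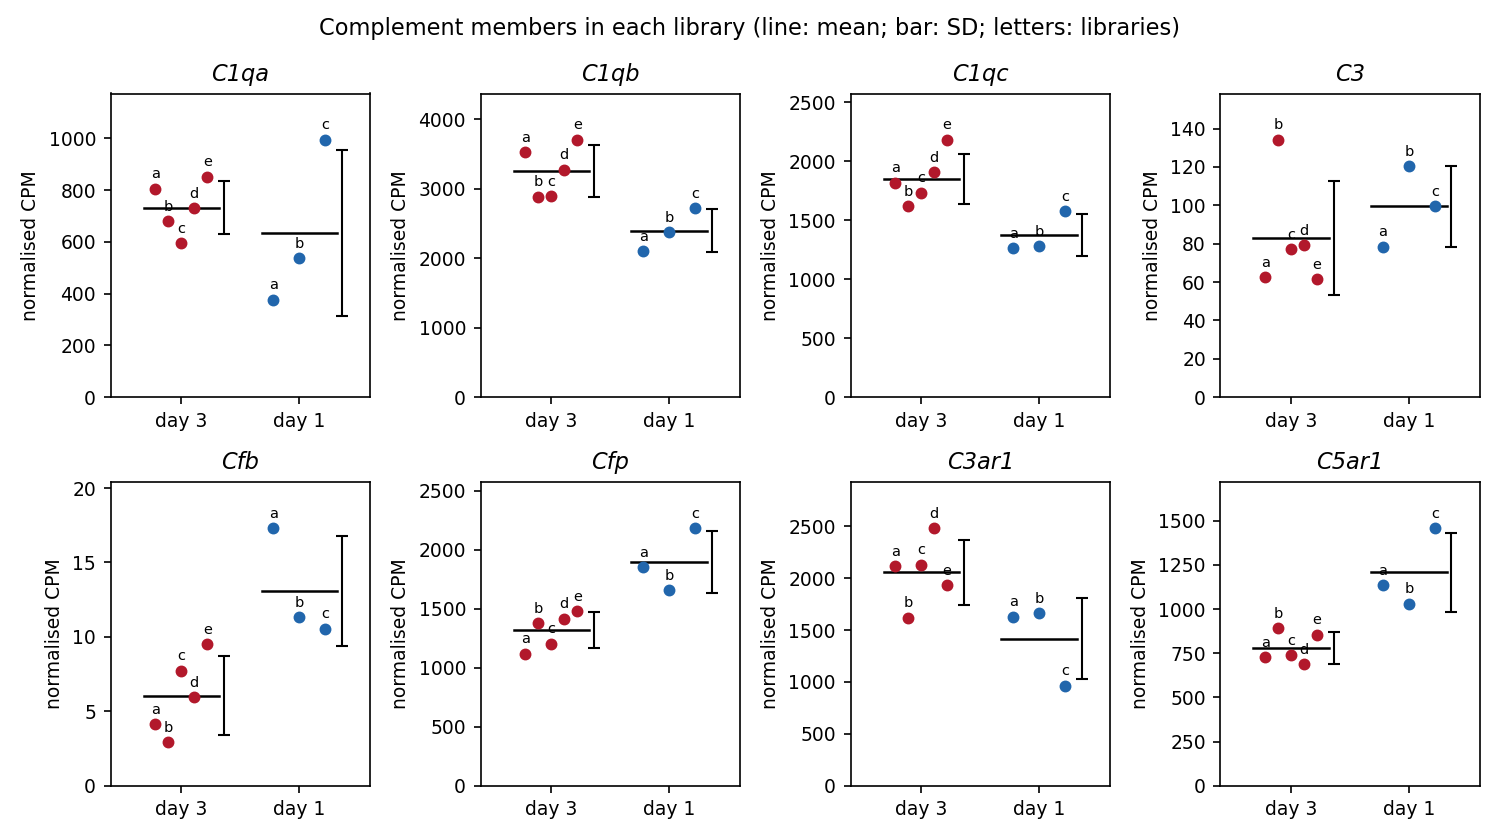
Normalised CPM of each complement member in the 5 day 3 libraries (red, left) and the 3 day 1 libraries (blue, right), with the mean as a line, the SD as a bar and library letters above the points. C1qb and C1qc were higher in every day 3 library than in any day 1 library, Cfb, Cfp and C5ar1 were lower, and C1qa, C3 and C3ar1 overlapped.

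C1qb was the most abundant member by CPM, and the C1q genes had day 3 means between 1.15 and 1.36 times their day 1 means. C1qb ranked 34th, C1qc 83rd and C1qa 200th by mean CPM of 15371 genes tested. They lie side by side on the minus strand of chromosome 4 in GRCm39, with C1qb at 136607440 to 136613498, C1qc at 136617115 to 136620376 and C1qa at 136623228 to 136626114. Each encodes a chain of the same protein.

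The windows ahead of C1qb and C1qc are shown because these genes varied together, with the highest positive correlation of any pair of members. They hold the 250 bases before the RefSeq start of each gene in build GRCm38.p6, which is older than the build of the counts, at chr4:136886201-136886450 and chr4:136892915-136893164 on the minus strand. Capitals mark GAGGAA, the core of sites for PU.1, a myeloid transcription factor, on either strand.
C1qb: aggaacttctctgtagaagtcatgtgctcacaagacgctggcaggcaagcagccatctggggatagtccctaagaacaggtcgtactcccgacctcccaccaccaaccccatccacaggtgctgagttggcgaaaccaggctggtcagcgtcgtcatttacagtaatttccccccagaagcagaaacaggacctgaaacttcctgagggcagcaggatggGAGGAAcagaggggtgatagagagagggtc
C1qc: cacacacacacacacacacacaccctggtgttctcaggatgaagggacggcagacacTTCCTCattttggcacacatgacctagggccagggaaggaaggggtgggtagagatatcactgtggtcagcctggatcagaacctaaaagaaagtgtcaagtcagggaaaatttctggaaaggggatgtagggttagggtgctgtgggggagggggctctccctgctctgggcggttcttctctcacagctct
GAGGAA occurred once in each window, 30 bases before the C1qb start and, on the other strand, 193 bases before the C1qc start, and 23.3% of 32851 windows of the same length hold it. The RefSeq table matched 6 of the 8 members, without C1qa and Cfb.

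C1qb had 3528, 2883, 2896, 3277 and 3705 CPM in day 3 a to e, against 2099, 2375 and 2718 CPM in day 1 a to c. Every day 3 library lay above every day 1 library, with day 3 b and day 1 c closest to each other. This gave a log2 fold change of 0.44 ± 0.16, with a 95% interval from 0.078 to 0.81 (edgeR adjusted p = 0.214).

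C1qc had 1818, 1620.4, 1733, 1909 and 2183 CPM in day 3 a to e, against 1265, 1282 and 1578 CPM in day 1 a to c. The order of the libraries matched that of C1qb at both extremes, day 3 e and day 1 a, and the groups again did not overlap. Its log2 fold change was 0.43 ± 0.16, with an interval from 0.072 to 0.79 (edgeR adjusted p = 0.222). Adgre1, the gene of the selected surface protein, differed by 0.46 ± 0.15 on the log2 scale, day 3 minus day 1 (edgeR adjusted p = 0.170).

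C1qa had 805, 679.6, 594, 729.9 and 853 CPM in day 3 a to e, against 377, 537 and 995 CPM in day 1 a to c. Day 1 c was the highest of all 8 libraries and day 1 a the lowest, so the days overlapped. Its log2 fold change was 0.20 ± 0.29, with an interval from -0.44 to 0.85 (edgeR adjusted p = 0.807), and it was 0.68 without day 1 c and -0.097 without day 1 a.

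The C1qc to C1qb ratio spanned a narrower range than the C1qa to C1qb ratio at day 1. At day 3 both were about as steady, the highest library standing at 1.16 times the lowest for C1qc and 1.15 times for C1qa. Counted per kilobase of exon, C1qc stood at 0.290, 0.317, 0.337, 0.328 and 0.332 of C1qb in day 3 a to e and at 0.340, 0.304 and 0.327 in day 1 a to c. C1qa stood at 0.239, 0.247, 0.215, 0.233 and 0.241 of C1qb in day 3 a to e, against 0.188, 0.237 and 0.383 in day 1 a to c. The C1qa share was thus highest in day 1 c and lowest in day 1 a. The C1qc share of day 1 c lay inside the range of the other libraries, and that of day 1 a was the highest. Day 1 c also had the smallest proportion of even numbers among counts from 2 to 20, 73.0% against 81.3% to 86.0% in the other libraries, and the part of that in the C1qa value was not tested.

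**Figure D2:**
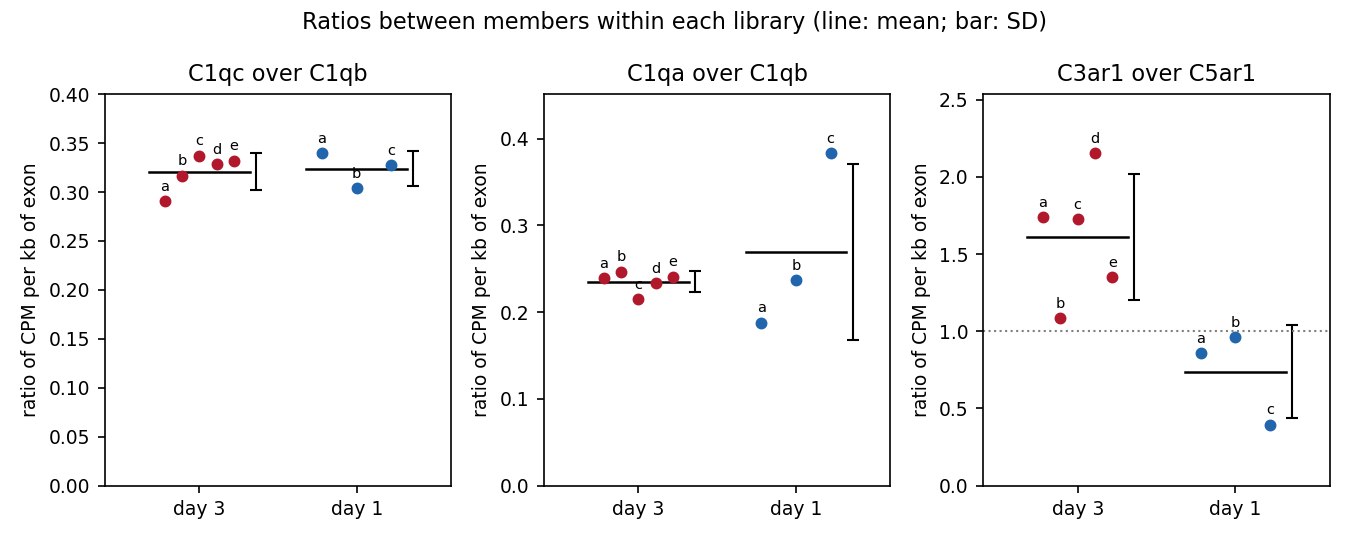
Ratios of CPM per kilobase of exon within each library for C1qc over C1qb, C1qa over C1qb and C3ar1 over C5ar1, day 3 in red on the left and day 1 in blue on the right, with the mean as a line and the SD as a bar. The C1qc ratio stayed between 0.290 and 0.340, the C1qa ratio reached 0.383 in day 1 c, and the receptor ratio was above 1 in each day 3 library and below 1 in each day 1 library.

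Together C1qa, C1qb and C1qc made up 6151, 5183, 5223, 5916 and 6740.5 CPM in day 3 a to e, against 3740.4, 4195 and 5291 CPM in day 1 a to c. The mean sum was 1.33 times as high at day 3, with day 1 c above day 3 b and c. On the same libraries the Lyz2 and Apoe transcripts, which dominate the macrophage marker sum, averaged 19781 ± 2908 and 28039 ± 1480 CPM at day 3, against 8167 ± 1609 and 8724 ± 4116 CPM at day 1 (SD, n = 5 and 3). Over the 8 libraries, which share 1 sequencing scale per library, the Pearson correlation of log2 CPM was 0.96 between C1qb and C1qc, 0.75 between C1qa and C1qb and 0.70 between C1qa and C1qc. Within days, from deviations from the day means, these were 0.88, 0.85 and 0.76. Among 3809 abundant genes, Hexa, Slc9a9 and Id3 followed the mean C1q pattern most closely, with Pearson correlations of 0.96, 0.96 and 0.94 over 8 libraries. As the highest of 3809 candidates, these values and those of the closest genes named below are high in part by selection. No p-value was computed for them.

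C3 was a far rarer transcript than those of C1q and gave no separation of the days. Its gene, on chromosome 17 at 57510970 to 57535136, encodes the protein on which all complement pathways meet. C3 had 62.6, 134, 77.1, 79.1 and 61.5 CPM in day 3 a to e, against 78.4, 120.4 and 99.6 CPM in day 1 a to c. Day 3 b stood alone above the other day 3 libraries and above all day 1 libraries. For C3 the fold change on the log2 scale was -0.26 ± 0.28, with an interval from -0.89 to 0.36 (edgeR adjusted p = 0.728), and -0.50 without day 3 b (edgeR adjusted p = 0.288). Day 3 b was also the day 3 library with the highest neutrophil marker sum, 3624 CPM, and the part of neutrophils in the C3 value was not tested. Azin1, Slc7a11 and Fpr2 followed C3 most closely, with Pearson correlations of 0.96, 0.93 and 0.92.

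The window ahead of C3 is shown for a motif that few windows hold. It covers chr17:57228137-57228386 on the minus strand (RefSeq, GRCm38.p6), and capitals mark TTGCGNAA, a form of the site for C/EBP factors, which act in inflammation.
C3: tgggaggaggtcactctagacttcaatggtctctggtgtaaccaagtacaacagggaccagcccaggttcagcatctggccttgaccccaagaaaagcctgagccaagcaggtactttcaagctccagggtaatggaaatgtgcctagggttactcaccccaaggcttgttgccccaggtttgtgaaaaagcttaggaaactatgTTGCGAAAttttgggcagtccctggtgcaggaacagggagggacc
TTGCGNAA occurred at 45 bases before the start as TTGCGAAA, and 0.67% of windows hold it on either strand, while the other 5 matched members have no match in their windows. The interferon response element was searched in the same way, as GAAA repeated after any 2 bases, and occurred in 0 of the 6 windows and in 2.98% of all.

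The alternative pathway genes Cfb and Cfp both lay lower in every day 3 library than in any day 1 library, at very different levels. Cfp, on chromosome X at 20791693 to 20797794, had 1119.6, 1379, 1205, 1415 and 1482 CPM in day 3 a to e, against 1852, 1658 and 2183 CPM in day 1 a to c. Day 3 e and day 1 b came closest to each other. Cfp had a log2 fold change of -0.52 ± 0.16, with an interval from -0.88 to -0.17 (adjusted p = 0.135 by edgeR, 0.0307 by DESeq2 and 0.0503 by limma voom). Neutrophils are a known source of properdin. Day 3 b, the day 3 library with the highest neutrophil markers, was the third highest of its day for Cfp. Day 1 c, the day 1 library with the highest neutrophil markers, had the most Cfp of its day, 2183 CPM. The part of neutrophils in the Cfp difference was not tested. Ralb, Dap and Sgpl1 followed Cfp most closely, with Pearson correlations of 0.99, 0.98 and 0.98.

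Cfb, on chromosome 17 at 35075350 to 35081494, had 4.14, 2.91, 7.73, 5.94 and 9.51 CPM in day 3 a to e, against 17.3, 11.3 and 10.6 CPM in day 1 a to c. The groups did not overlap, with day 3 e and day 1 c closest to each other. Cfb had a log2 fold change of -1.11 ± 0.51, with an interval from -2.26 to 0.035 (edgeR adjusted p = 0.337). The Cfb level is understated by the way reads were counted. Of its 2825 exon bases, 2246 (79.5%) also belong to Gm20547, an annotated gene on the same strand that spans Cfb and C2, and with no option recorded for them, reads on bases shared by 2 genes are left unassigned. Gm20547 had 0 counts over the 8 libraries. Per kilobase of all exon bases Cfb averaged 2.14 ± 0.942 CPM at day 3 and 4.62 ± 1.305 CPM at day 1 (SD, n = 5 and 3). Per kilobase of the 579 bases that belong to Cfb alone it averaged 10.4 ± 4.597 CPM at day 3 and 22.6 ± 6.37 CPM at day 1, near the C3 level of 16.1 ± 5.79 and 19.3 ± 4.08 CPM. Fip1l1, Phf23 and Parp14 followed Cfb most closely, with Pearson correlations of 0.96, 0.95 and 0.95.

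The receptor genes C3ar1 and C5ar1 had fold changes of opposite sign. C3ar1, on chromosome 6 at 122824097 to 122833120, encodes the receptor for C3a, and C5ar1, on chromosome 7 at 15980668 to 15993465, the receptor for C5a, a strong attractant of neutrophils and monocytes.

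C3ar1 had 2117, 1621, 2132, 2481 and 1931 CPM in day 3 a to e, against 1630.4, 1663 and 963 CPM in day 1 a to c. Of the day 3 libraries, day 3 b lay below day 1 a and b, and the other 4 were above all day 1 libraries. C3ar1 had a log2 fold change of 0.54 ± 0.22, with an interval from 0.039 to 1.03 (edgeR adjusted p = 0.278), and 0.32 without day 1 c. Ptpn22, Sdccag8 and Apobec1 followed C3ar1 most closely, with Pearson correlations of 0.99, 0.98 and 0.98.

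C5ar1 had 727, 893, 738, 688 and 855 CPM in day 3 a to e, against 1134, 1031 and 1458 CPM in day 1 a to c. All day 3 libraries lay below all day 1 libraries, with day 1 c the highest and day 3 b the highest of its day. The log2 fold change was -0.63 ± 0.17, with an interval from -1.003 to -0.26. Of the 8 members it had the smallest adjusted p, 0.0907 by edgeR, 0.0122 by DESeq2 and 0.0362 by limma voom. The edgeR value ran from 0.1001 to 0.210 with 1 library left out. Neutrophils express C5ar1, and the libraries with the highest C5ar1 of each day, day 3 b and day 1 c, also had the highest neutrophil marker sums, 3624 and 3773 CPM. Day 1 a had 1134 CPM of C5ar1, above all day 3 libraries, and a neutrophil sum of 825 CPM. The part of neutrophils in the C5ar1 difference was not tested. Anxa2, Tarm1 and Sdf2l1 followed C5ar1 most closely, with Pearson correlations of 0.99, 0.98 and 0.98.

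**Figure D3:**
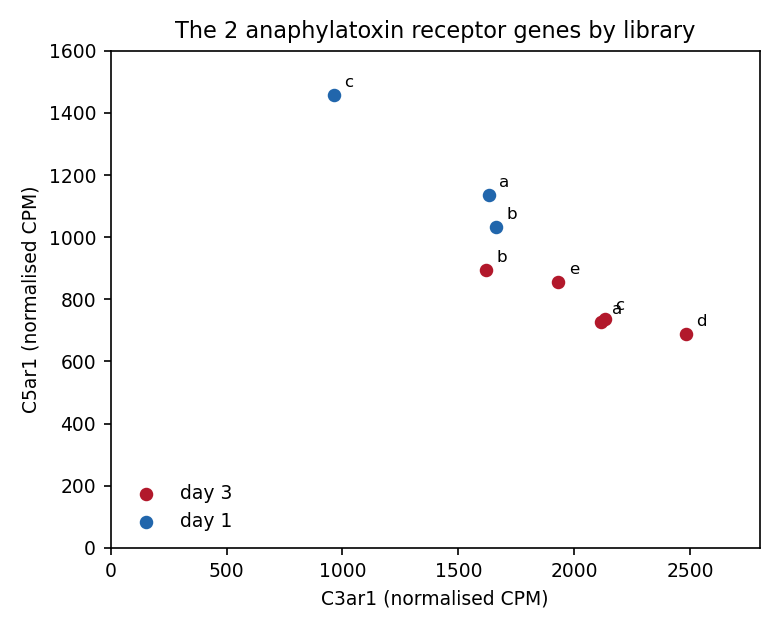
C5ar1 against C3ar1 in normalised CPM, 1 point per library with its letter, day 3 in red and day 1 in blue. The points run from day 3 d, with the most C3ar1 (2481 CPM) and the least C5ar1 (688 CPM), to day 1 c, with the least C3ar1 (963 CPM) and the most C5ar1 (1458 CPM).

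The C3ar1 to C5ar1 ratio within a library, counted per kilobase of exon, was on opposite sides of 1 on the 2 days. Per kilobase of exon, C3ar1 stood at 1.74, 1.08, 1.72, 2.15 and 1.35 times C5ar1 in day 3 a to e, against 0.858, 0.963 and 0.394 times in day 1 a to c. The ratio was above 1 in every day 3 library and below 1 in every day 1 library. Its side of 1 depends on the annotated exon lengths, 4305 bases for C3ar1 and 2570 for C5ar1. By CPM alone, C3ar1 was above C5ar1 in every library except day 1 c. That includes day 1 a (1630 against 1134 CPM) and day 1 b (1663 against 1031 CPM). The Pearson correlation of log2 CPM between these genes was -0.95 over 8 libraries and -0.95 within days, the most negative of all pairs of members. C5ar1 and Cfp varied together, with a correlation of 0.92 over 8 libraries and 0.71 within days.

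Ordered by mean CPM per kilobase of exon, the members at day 3 were C1qb (2994 ± 339), C1qc (959 ± 110.3), Cfp (760.4 ± 87.5), C1qa (704 ± 98.1), C3ar1 (478 ± 73.0), C5ar1 (304 ± 34.5), C3 (16.1 ± 5.79) and Cfb (2.14 ± 0.942). At day 1 they were C1qb (2203 ± 285), Cfp (1093 ± 153), C1qc (712 ± 91.1), C1qa (612 ± 308), C5ar1 (470 ± 86.5), C3ar1 (330 ± 91.8), C3 (19.3 ± 4.08) and Cfb (4.62 ± 1.305). C1qb led by a wide margin on both days. The last places rest on all exon bases of Cfb. On its unshared bases, given above, Cfb would lie above C3 at day 1 and below it at day 3, and the ranges of mean ± SD of these genes overlap on both days. Between the other neighbours in the order, the ranges of mean ± SD overlapped for Cfp and C1qa at day 3. At day 1 they overlapped for C1qc and C1qa, for C1qa and C5ar1, and for C5ar1 and C3ar1.

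Of 50 other complement genes, 29 passed the filter and edgeR called 0 of those (5 had an unadjusted p under 0.05, against 15.7% of all genes tested, 3 higher and 2 lower). DESeq2 called 3 of the 29, against 6.77% of all genes, and limma voom 2, against 5.37%. Their median log2 fold change was -0.34, with 11 positive and 18 negative. Most of the proteases and terminal components that would complete the cascade were at or near the floor. For C2 and Masp2, which encode proteases, 46.9% and 54.9% of exon bases are shared with other genes, so their counts may be too low. Of 7 classical pathway proteases and substrates 2 passed the filter, and the most abundant were C4b, a substrate of the C1 proteases, at 3.74 ± 2.06 CPM at day 3 and 5.34 ± 3.63 CPM at day 1, and C1ra, at 3.42 ± 2.60 and 3.44 ± 4.02 CPM. C4b has a close copy, C4a, and C1ra a close copy, C1rb, so reads that match both may have been misplaced or left out. Of 9 lectin pathway genes 4 passed, led by the ficolin gene Fcna, at 74.1 ± 27.8 CPM at day 3 and 86.4 ± 75.8 CPM at day 1, and Colec12, at 4.76 ± 2.87 and 11.4 ± 15.9 CPM. Both were highest in day 1 a. Without it the log2 fold change of Fcna was 0.75, against -0.22 with all libraries, and that of Colec12 was 1.02, against -1.26. Of 7 terminal components 2 passed, C6 and C9. The most abundant by mean were C6, at 2.32 ± 2.64 and 4.36 ± 4.16 CPM, and C8g, at 0.549 ± 0.720 and 0.0303 ± 0.0525 CPM. C8g did not pass the filter, and its day 1 mean lay below the floor.

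Cfd, the gene of factor D, which cleaves factor B and is best known from fat cells, had 3.65, 1.06, 2.68, 1.45 and 0 CPM in day 3 a to e. In day 1 a to c it had 2, 2 and 0 counts, below the floor of 3 (edgeR adjusted p = 0.235, DESeq2 0.0171). Summed fibroblast markers were also higher at day 3, at 56.03 to 119 CPM, against 9.49 to 37.7 CPM at day 1. Of the 6 genes, 3 were higher in every day 3 library, the collagen genes Col1a1, Col1a2 and Col3a1. Pdgfra, Dcn and Lum overlapped between the days. The part of fibroblasts in the Cfd values was not tested.

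Among soluble regulators, Serping1, the C1 inhibitor gene, averaged 4.21 ± 3.34 CPM at day 3 and 2.90 ± 2.64 CPM at day 1. On the membrane side 5 of 6 regulators passed the filter, led by Cr1l, encoding Crry, which protects rodent cells from C3 deposition, at 139 ± 15.1 CPM at day 3 and 96.8 ± 34.4 CPM at day 1 (0.52 ± 0.24, edgeR adjusted p = 0.330), and Cd55 at 1.76 ± 2.69 and 6.22 ± 2.11 CPM.

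Of 6 further receptor genes 5 passed. Itgb2 and Itgam, which encode the chains of complement receptor CR3, averaged 839 ± 145 and 189 ± 16.2 CPM at day 3, against 1124 ± 195 and 189 ± 35.9 CPM at day 1. Their log2 fold changes were -0.42 ± 0.18 and 0.0028 ± 0.17 (edgeR adjusted p = 0.310 and 0.997). The Itgam level is understated as that of Cfb is, since 3450 of its 5024 exon bases (68.7%) also belong to Gm49368, which had 2 counts over the 8 libraries. All 5 genes listed as C1q and collectin receptors passed. Calr, encoding calreticulin, a chaperone that binds C1q at the cell surface, had 218, 289, 247, 251 and 255 CPM in day 3 a to e, against 519, 464 and 1218 CPM in day 1 a to c. Its log2 fold change was -1.54 ± 0.29 (adjusted p = 0.0741 by edgeR, 8.80e-05 by DESeq2 and 0.0256 by limma voom), and -0.97 without day 1 c. Cd93 averaged 302 ± 26.1 CPM at day 3 and 279 ± 58.2 CPM at day 1.

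**Figure D4:**
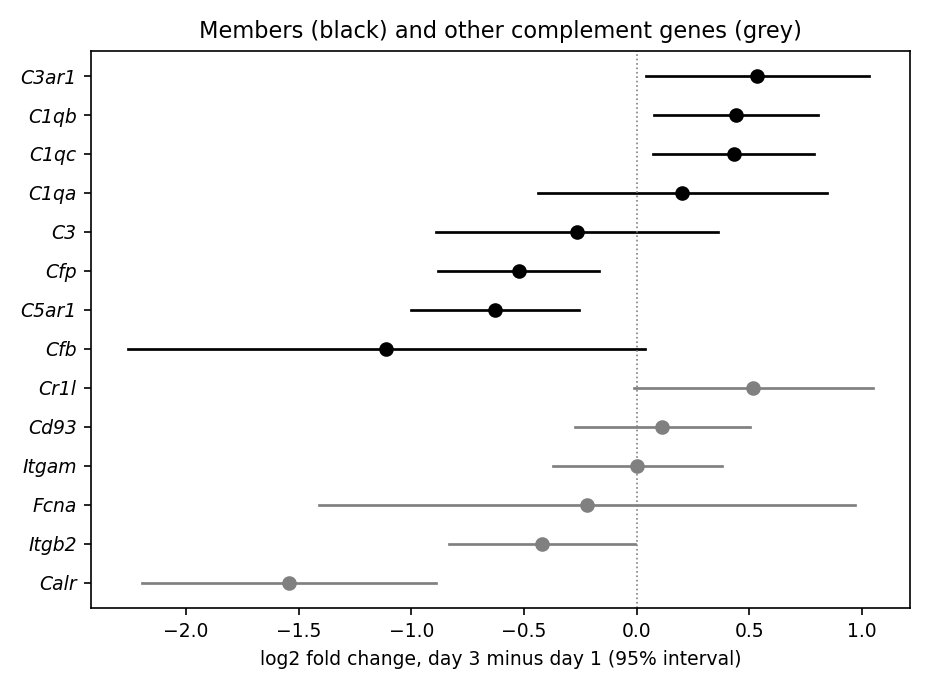
Log2 fold change, day 3 minus day 1, with its 95% interval from the edgeR fit. Black marks the 8 complement members and grey marks 6 other complement genes. Those 6 were reported here under the naming rule and had an average log2 CPM of 5 or more. Lair1, named outside that rule, is not plotted. Intervals of C3ar1, C1qb and C1qc lay above 0 and those of Cfp and C5ar1 below 0, before any adjustment over genes, and Calr stood farthest out among the other genes.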

How the data were processed

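The authors deposited raw counts per gene, 1 column per library. Per the file headers, the authors made them with featureCounts 1.6.0 from the GRCm39 gene models of Ensembl 106, with no option recorded for strand, read pairs or reads on several genes. The submitters' processing notes also name Trimmomatic and DESeq2. The aligner was not given in the sources used here. Column letters match the sample titles, but some alignment names in the header have other letters, so letters served only as names.

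Symbols came from the reference name table (52081 of 55414 genes). Genes were filtered with filterByExpr of edgeR (minimum count 10), scaled with TMM and fitted by quasi-likelihood in edgeR 4.0.16 (two-sided F test, Benjamini-Hochberg over all genes, threshold 0.05). Alternatives used DESeq2 1.42.0 and limma 3.58.1 under R 4.3.3. Promoters and figures used Python 3.11.15 with pandas 2.3.3, numpy 2.4.6 and matplotlib 3.10.9. Correlations used log2 CPM with a prior count of 2. Motifs were searched in the RefSeq windows on both strands.

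Named were all members, the called or else the 2 most abundant genes of each complement list, and the 3 genes most correlated with the mean of C1q or with each other member, among those averaging 5 or more log2 CPM. 1 gene that the rule names is not reported here, though counts over the lists include it. Members and lists were chosen with earlier results of these data known. Alternatives were DESeq2, limma voom, RLE scaling, library totals, no filter, a stricter filter (a mean of 5 CPM, and 1 CPM throughout either day), a threshold of 0.1, each library left out, day 3 b and day 1 a left out, libraries a to c alone, blocked or not by letter, and halved counts. Markers of 12 cell types were summed per library.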

Additional observations from a re-analysis of the deposited data

Results flagged for a closer look

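C3 stood at 134 CPM in day 3 b, apart from the other 4 day 3 libraries, the nearest of which had 79.1 CPM. The gap to that library was 0.758 of the whole day 3 range, above the critical value of 0.71 for 5 values. This was the only library singled out among 14 measures of members and their ratios or sums in the day 3 libraries, and chance flags about 1 in 20 such groups. Neutrophil markers summed to 3624 CPM in the same library.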

How the results depend on the processing

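With 1 library left out, 3 to 6 of 8 members had an unadjusted p under 0.05 by edgeR. Over all genes this held for 1976 of 15038 tested (without day 3 c) to 2877 of 17229 (without day 1 a). The count of called members was 0 by edgeR with each library left out, with RLE scaling, library totals, the stricter filter or halved counts. It was 2 with DESeq2 (C5ar1 and Cfp), 1 with limma voom (C5ar1), 2 with no filter on low counts (C5ar1 lower, C3ar1 higher, where 3.5% of genes were called) and 1 at a threshold of 0.1 (C5ar1). Other complement genes were called as follows: 3 with DESeq2, 2 with limma voom, 2 with no filter, 1 with the stricter filter (Calr), 2 at a threshold of 0.1, and 0 to 2 with 1 library left out. Over all genes the 2 calls became 1041 with DESeq2, 825 with limma voom, 1347 with no filter, 146 with the stricter filter, 735 at a threshold of 0.1, 46 with halved counts and 25 without day 3 b and day 1 a. With 1 library left out they ran from 0 (without day 1 a, or without day 3 a, c, d or e, with 1976 to 2877 at an unadjusted p under 0.05) to 59 (without day 1 b), and the cause was not tested.

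The log2 fold change of C1qa was -0.097 without day 1 a, 0.68 without day 1 c and -0.041 without day 3 b and day 1 a, and the other 7 members kept their sign in all 19 fits. Letters a to c alone gave 0 calls over all genes without the block and 0 with the replicate block (1660 and 1343 at an unadjusted p under 0.05). Deviations of libraries with the same letter correlated at 0.0857, 0.0267 and 0.000606. Day 3 a and b correlated best with their own letter, and day 3 c with day 1 a. Correlations this small cannot decide whether the letters pair the libraries, and the letters were not taken to do so. Small groups of 5 and 3 pools, and counts unassigned on shared exon bases, limit what can be seen for Cfb, Itgam, C2 and Masp2.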

Other observations

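Lair1, named after its values were seen, encodes an inhibitory receptor that binds collagens and C1q. It had 201, 169, 244, 232 and 244 CPM in day 3 a to e, against 167, 165 and 54.6 CPM in day 1 a to c. All day 3 libraries were higher, though Lair1 was not called (0.76 ± 0.34 on the log2 scale, edgeR adjusted p = 0.317). It was 1 of 3 other complement genes among the 29 tested whose day ranges did not overlap, against 14.1% of all genes tested.

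Vsig4, a complement receptor of resident macrophages that was tested but fell outside the naming rule, had 6.36, 2.85, 0, 2.86 and 6.67 CPM in day 3 a to e, against 14.2, 0 and 0.0546 CPM in day 1 a to c. C5ar2, the second receptor for C5a, averaged 12.1 ± 2.72 CPM at day 3 and 10.8 ± 6.74 CPM at day 1 (SD, n = 5 and 3).

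Of 12 marker sums, none passed adjustment over the lists. The smallest exact permutation p was 0.0357, the smallest that 56 splits allow (two-sided, adjusted 0.0857), for macrophage, inflammatory monocyte, platelet, fibroblast and B and plasma cell sums. Platelet markers summed to 2479 to 3771 CPM at day 3 and 3822 to 7132 CPM at day 1, and B and plasma cell markers to 17.6 to 36.1 CPM at day 3 and 0.252 to 13.4 CPM at day 1. Dendritic cell markers summed to 54.9 to 158 CPM at day 3 and 87.3 to 194 CPM at day 1, and endothelial cell and pericyte markers to 13.1 to 31.6 CPM at day 3 and 30.3 to 69.3 CPM at day 1. Sums of keratinocyte, red cell, T and NK cell and mast cell markers were at most 29.5 CPM at day 3 and 5.69 CPM at day 1. At 0 in all libraries were 2 mast cell genes and 1 platelet gene.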
